A study of Mus musculus with 6 samples.

Results

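The genes described here are 46 genes of DNA replication and S phase in mouse fetal liver. They were chosen by symbol from the gene count table, which lists 34542 genes, and all 46 were found there, passed the filter on low counts and were also listed in the table of exon and intron counts. They span origin licensing, the replicative helicase, cyclin E and Cdc7, the polymerases, the sliding clamp and its loader, nucleotide supply, and chromatin assembly behind the fork. Polyadenylated RNA was sequenced from fetal liver cells of C57BL/6J embryos that lacked the miR-144/451 locus (KO, 3 libraries, replicates 4 to 6) and of wild-type embryos (WT, 3 libraries, replicates 1 to 3), from equal numbers of cells. By the labels the groups differ in genotype only and share strain and tissue. The labels give neither the embryos' age nor how the locus was removed, and they leave it unsaid if embryos were pooled for a library. The p-values therefore speak of the spread among these 6 samples, which may in part be technical.

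Replication starts when the origin recognition complex, with Cdc6 and Cdt1, loads the Mcm helicase onto DNA in G1. Cyclin E with its kinase and Cdc7 then switch the helicase on, and polymerases copy both strands while ribonucleotide reductase keeps up the supply of DNA building blocks. Transcription of most of these genes is known to rise at the entry into S phase through the E2F factors. The fetal liver is a blood-forming organ in which red cell precursors divide rapidly, and miR-144 and miR-451, made from 1 transcript, accumulate as those precursors mature.

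The sequences of the deleted microRNAs are shown beside the seed matches found in the replication genes. They are the mature forms of RefSeq on mouse build GRCm38.p6, on the plus strand at chr11:78073186-78073207, chr11:78073047-78073066 and chr11:78073010-78073032 in the order printed, with the seed (bases 2 to 8) in capitals, and no seed is shared between them.
mmu-miR-451a: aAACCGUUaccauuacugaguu
mmu-miR-144-3p: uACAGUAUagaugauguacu
mmu-miR-144-5p: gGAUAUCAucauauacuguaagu

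Few of the replication genes held a seed match in the longest annotated 3' untranslated region (GENCODE, build GRCm38). A miR-451a match was found in 1 of 46, or 2.17%, against 1.89% of all genes of the count table that have such a region. A miR-144-3p match was found in 4 of 46, or 8.7%, against 12.6% of all genes, and a miR-144-5p match in 3 of 46, or 6.52%, against 6.86%. The shares were close to those of all genes for miR-451a and miR-144-5p and lower for miR-144-3p, with no test made. The sites of 4 of these genes are printed with 7 bases on either side and the seed match in capitals. The Pold1 site is the miR-451a match and lies at chr7:44533270-44533276 on the minus strand, in the untranslated region of an alternative transcript and outside that of the principal transcript. The Ccne2 site, at chr4:11204406-11204412 on the plus strand, the Pola1 site, at chrX:93305558-93305564 on the minus strand, and the Mcm5 site, at chr8:75127479-75127485 on the plus strand, are miR-144-3p matches.
Pold1 site: ttggaagAACGGTTctctcgc
Ccne2 site: tcttttaATACTGTttacttt
Pola1 site: ggactgcATACTGTgttgatg
Mcm5 site: tggcctcATACTGTgtttgag
MicroRNAs are known to lower transcripts that carry such sites. Of these 4 genes Pold1 had a log2 change above 0 (0.31), and Ccne2 (-0.62), Pola1 (-0.31) and Mcm5 (-0.09) had changes below 0. The other genes with a match, whose sites are not printed, also had changes below 0. They were Dtl (-0.22), with a miR-144-3p match, and Cdc6 (-0.35), Rpa1 (-0.19, with 2 matches) and Rrm1 (-0.12), with miR-144-5p matches. Like that of Pold1, the Dtl match is absent from the untranslated region of the principal transcript. None of the changes of genes with a match passed the test across all genes described below.

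The promoters were searched for an E2F-type word (TTTCCCGC, TTTCGCGC, TTTGCCGC or TTTGGCGC) on either strand, from 250 bases before to 50 bases after the annotated start (RefSeq, build GRCm38.p6). A window was given for 38 of the 46 genes, and 14 of the 38 held a word, which is 36.8%, against 3.2% of the genes of the count table (524 of 16357). The word was held by 4 of 5 licensing genes, 5 of 8 helicase genes and 2 of 4 polymerase genes with a window, and by 0 of 5 nucleotide supply genes. In the remaining groups 2 of 10 clamp, loader and single-strand binding genes, 1 of 4 chromatin genes and 0 of 2 kinase and cyclin genes held it. Of the words, 20 in all, the lowest position was -185 and the highest 40 relative to the start. Matches on both strands may overlap each other, and a match is a description of letters only. The windows of 4 genes are printed because they stand at different places in the range of changes, with the words in capitals. Orc1, at chr4:108579204-108579503 on the plus strand, is the licensing gene with the lowest log2 change and holds 1 word. Mcm6, at chr1:128359656-128359955 on the minus strand, holds 3 words, of which the first pair overlap. Pold1, at chr7:44548766-44549065 on the minus strand, had the highest log2 change of the 46 genes and holds 1 word. Rrm2, at chr12:24708004-24708303 on the plus strand, had the lowest log2 change and holds 0 words in this window.
Orc1: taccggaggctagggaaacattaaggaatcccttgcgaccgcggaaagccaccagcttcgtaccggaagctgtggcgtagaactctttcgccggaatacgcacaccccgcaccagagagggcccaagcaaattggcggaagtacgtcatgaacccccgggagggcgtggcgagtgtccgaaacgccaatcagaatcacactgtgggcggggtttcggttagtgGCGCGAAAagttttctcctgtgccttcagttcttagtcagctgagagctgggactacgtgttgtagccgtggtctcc
Mcm6: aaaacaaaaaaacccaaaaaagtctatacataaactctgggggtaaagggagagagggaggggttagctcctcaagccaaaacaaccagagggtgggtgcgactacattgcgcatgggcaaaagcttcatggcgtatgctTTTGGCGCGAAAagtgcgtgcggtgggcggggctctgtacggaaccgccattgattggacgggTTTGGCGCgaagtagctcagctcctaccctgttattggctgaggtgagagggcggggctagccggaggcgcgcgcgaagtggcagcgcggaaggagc
Pold1: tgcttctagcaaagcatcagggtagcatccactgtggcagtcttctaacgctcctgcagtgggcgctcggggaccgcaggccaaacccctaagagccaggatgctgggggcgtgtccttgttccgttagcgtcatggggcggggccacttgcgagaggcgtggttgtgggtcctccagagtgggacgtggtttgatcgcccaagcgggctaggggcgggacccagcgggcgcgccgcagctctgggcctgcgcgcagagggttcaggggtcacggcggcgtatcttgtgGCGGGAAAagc
Rrm2: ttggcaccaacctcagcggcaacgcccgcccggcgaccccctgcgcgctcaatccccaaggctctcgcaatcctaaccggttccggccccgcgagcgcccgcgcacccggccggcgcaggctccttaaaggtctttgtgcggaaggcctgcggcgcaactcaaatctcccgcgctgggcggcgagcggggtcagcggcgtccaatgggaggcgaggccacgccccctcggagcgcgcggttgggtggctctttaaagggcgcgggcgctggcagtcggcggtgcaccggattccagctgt

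Before the results, 3 facts about the libraries bear on all of them. Gene counts totalled 40392139 to 44700229 in KO libraries and 24659978 to 36082084 in WT libraries. The primary transcripts of the deleted locus had 1, 1 and 0 reads (Mir144) and 3, 2 and 4 reads (Mir451) in KO libraries, against 51, 47 and 29 reads (Mir144) and 323, 446 and 418 reads (Mir451) in WT libraries, so every library matched its label. KO replicate 6 and WT replicate 2 stood apart by their hepatocyte content: the summed level of 20 hepatocyte markers was 14215, 22152 and 49928 CPM (counts scaled to a common, normalised library size) in KO replicates 4, 5 and 6, and 16435, 61607 and 9745 CPM in WT replicates 1, 2 and 3. None of the 20 was at 0 in all libraries, and none changed between KO and WT past the threshold.

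The mean log2 level of the 46 replication genes was lowest, within each group, where the hepatocyte level was highest. It was 7.32, 7.26 and 7.07 in KO replicates 4, 5 and 6, and 7.60, 7.16 and 7.59 in WT replicates 1, 2 and 3. The groups overlapped through WT replicate 2 alone: the other WT libraries were above every KO library. The 46 genes took 1.12%, 1.06% and 0.919% of the counts in KO libraries, and 1.25%, 0.987% and 1.29% in WT libraries. In bulk tissue, fewer cells of a type and less RNA per cell cannot be told apart, and values without the hepatocyte-rich libraries are given after those of all 6.

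**Figure D1:**
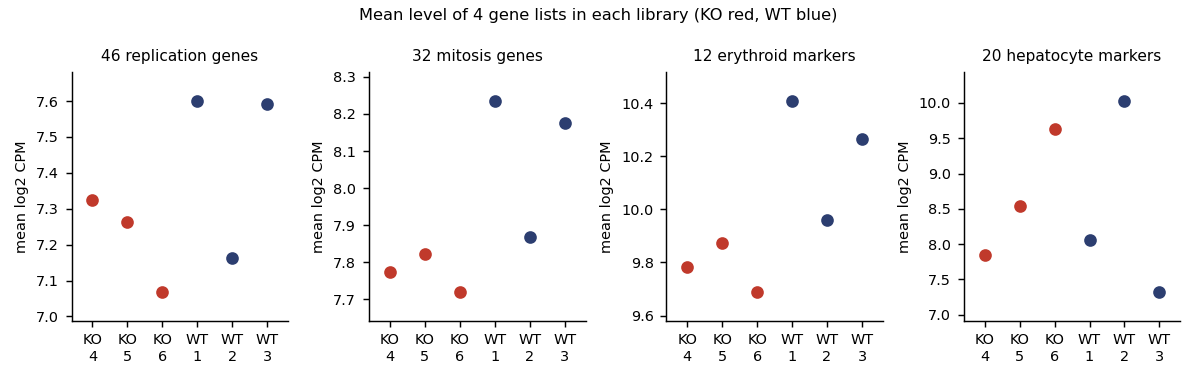
Mean log2 CPM of 4 gene lists in each library, with KO libraries in red (replicates 4 to 6) and WT libraries in blue (replicates 1 to 3); each point is 1 library. The replication mean was 7.16 in WT replicate 2 and 7.60 and 7.59 in the other WT libraries, and the hepatocyte mean was highest in KO replicate 6 (9.63) and WT replicate 2 (10.03).

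Across the 46 genes the changes were small and mostly in one direction, and 1 gene fell by enough to pass the test. Log2 changes, KO over WT, were below 0 for 42 of 46 genes, against 55.2% of the 15105 genes tested, and their median was -0.21, against -0.03 for all tested genes. Leaving out 1 library at a time, that median lay between -0.35 (without WT replicate 2, beside 0.01 for all genes) and -0.13 (without WT replicate 1, beside -0.05 for all genes). These genes were measured in the same 6 libraries and moved together from library to library, so the 42 are not 42 separate observations. Rrm2 fell, 1 of 46 genes, where 1.45% of all tested genes fell at an adjusted p under 0.05 in edgeR's quasi-likelihood test with Benjamini-Hochberg (BH) adjustment. By the same test 0 of 46 rose, against 1.83% of all genes. At an unadjusted p under 0.05, 10 of 46 were lower in KO, against 8.78% of all genes, and 1, Pold1, was higher, against 7.77%. All KO libraries were below all WT libraries for 5 genes, Orc1, Ccne2, Fen1, Rrm2 and Slbp, against 10.9% of all genes, and above them for 0 genes, against 11.8%. The share lower without overlap was thus near that of all genes, and no gene was higher without overlap.

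**Figure D2:**
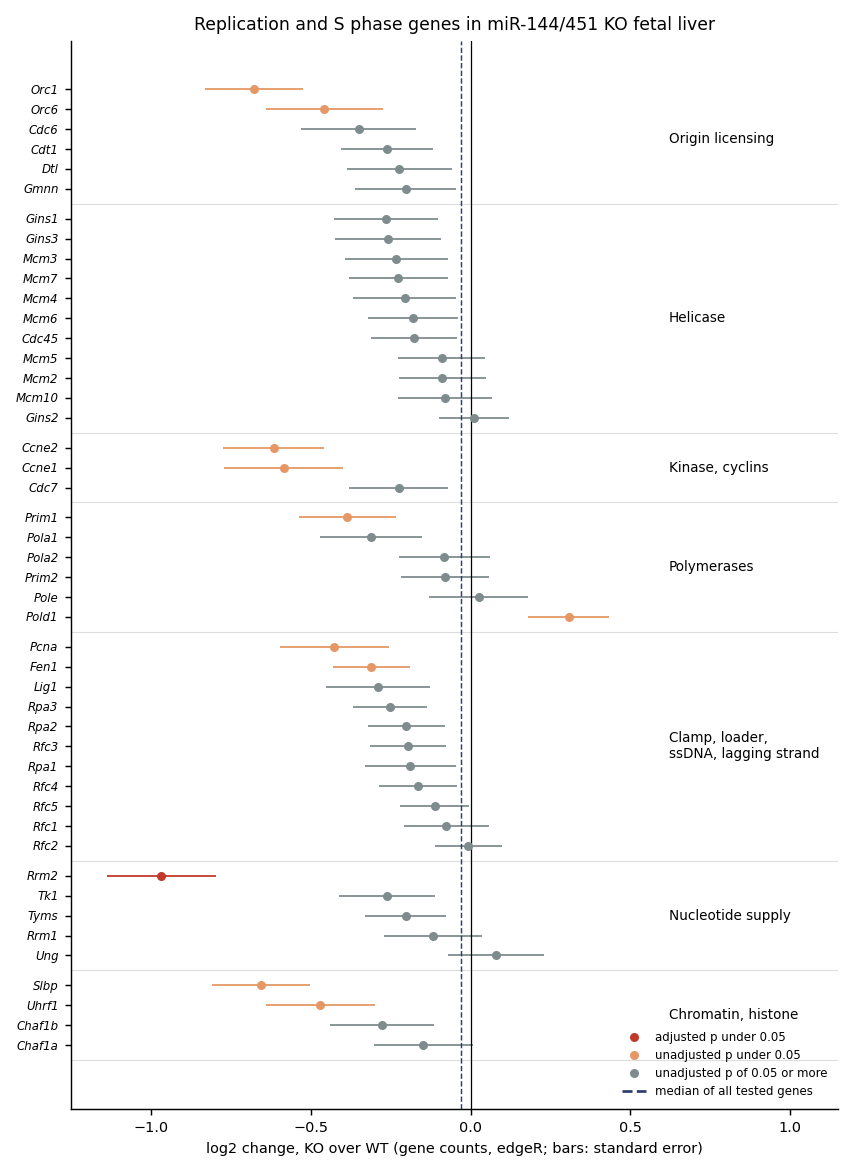
Log2 change, KO over WT, of each of the 46 genes by role, with its standard error as a bar; the solid line marks no change and the dashed line the median of all tested genes (-0.03). Most points lie between -0.5 and 0, Rrm2 stands at -0.97, and Pold1 stands highest at 0.31.

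Among the nucleotide supply genes Rrm2 alone passed in the fit of all 6 libraries. It encodes the small subunit of ribonucleotide reductase, which holds the radical the enzyme needs and is made in S phase. Rrm2 had 488, 505 and 433 CPM in KO libraries, against 1077, 718 and 991 CPM in WT libraries. No KO library reached the lowest WT library. The log2 change was -0.97 ± 0.17 (SE, n = 3 each, adjusted p = 0.039 by edgeR's quasi-likelihood test), a level 48.9% below WT. Rrm1, the large subunit of the same enzyme, had 918, 921 and 805 CPM in KO libraries, against 1059, 772 and 1037 CPM in WT libraries, with WT replicate 2 below every KO library. Its log2 change was -0.12 ± 0.15 (adjusted p = 0.85). Tk1, the thymidine kinase of S phase, had a log2 change of -0.26, Tyms, thymidylate synthase, one of -0.20, and Ung, which removes uracil from DNA, one of 0.08, and none of these passed.

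The count ratio of the ribonucleotide reductase subunits differed between the groups, for a pair picked after the values were seen. The count ratio of Rrm2 to Rrm1, taken within a library and so free of its scaling, was 0.532, 0.548 and 0.537 in KO libraries, against 1.02, 0.931 and 0.956 in WT libraries. It averaged 0.539 ± 0.008 in KO and 0.968 ± 0.044 in WT (SD, n = 3 each), and the hepatocyte-rich libraries sat with their own groups. Rrm2 was the gene called and Rrm1 changed little, so the ratio restates the Rrm2 change and is not separate support for it. With 3 libraries against 3, an exact permutation test of such a ratio cannot give a two-sided p under 0.1. Per kilobase of the principal transcript, Rrm2 stood at 217 ± 17.2 CPM in KO and 424 ± 85.5 CPM in WT, and Rrm1 at 221 ± 16.5 CPM in KO and 239 ± 40.0 CPM in WT. Rrm2 had rank 3 of the 46 genes in KO, after Pcna and Rrm1, and rank 2 in WT.

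The Rrm2 call rested on few libraries, although its size did not vary much. Leaving out any 1 library gave a log2 change from -1.12 to -0.85. The adjusted p was 0.0832 to 0.165 in 5 of these 6 fits, each of which leaves 1 group with 2 libraries, and 0.00628 without WT replicate 2.

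The licensing genes mark origins and load the helicase, and Orc1 had the lowest of their changes. Orc1, the largest subunit of the origin recognition complex and the one whose amount varies through the cycle, had 56.5, 52.8 and 43.3 CPM in KO libraries, against 88.4, 66.4 and 89.2 CPM in WT libraries. The groups did not overlap, and the log2 change was -0.68 ± 0.15 (SE, adjusted p = 0.0779 by edgeR). Cdc6, the loader of the helicase and the most abundant of these transcripts by CPM, had 236, 214 and 186 CPM in KO libraries, against 294, 204 and 312 CPM in WT libraries. WT replicate 2 lay within the KO values, and the log2 change was -0.35 (adjusted p = 0.415). Orc6, another subunit of the complex, had a log2 change of -0.46, Cdt1, the partner of Cdc6, one of -0.26, Dtl, the adaptor through which Cdt1 is destroyed in S phase, one of -0.22, and Gmnn, geminin, the inhibitor of Cdt1, one of -0.20. None of the 6 passed. The Cdt1 to Gmnn count ratio was 1.47, 1.37 and 1.25 in KO libraries, against 1.46, 1.58 and 1.27 in WT libraries, and the groups overlapped.

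None of the 11 helicase genes passed, and their log2 changes lay close to each other. The 6 subunits of the Mcm ring, Mcm2 to Mcm7, had log2 changes from -0.23 (Mcm3) to -0.09 (Mcm2). Mcm6, the highest of the group by CPM, had 613, 610 and 558 CPM in KO libraries, against 763, 553 and 703 CPM in WT libraries, a log2 change of -0.18 ± 0.14 (SE, adjusted p = 0.642). WT replicate 2 was below all KO libraries here too. Gins1, of the GINS complex that joins Cdc45 and Mcm in the active helicase, had the lowest change of the group, with 44.7, 45.9 and 38.0 CPM in KO libraries and 57.9, 40.0 and 56.7 CPM in WT libraries, and a log2 change of -0.26 (adjusted p = 0.515). Gins3 was at -0.26, Cdc45 at -0.18, Mcm10, which helps to start the fork, at -0.08, and Gins2 at 0.01.

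The 2 cyclin E genes, whose proteins drive entry into S phase, had lower log2 changes than the kinase gene of the same group. Ccne2 had 144, 146 and 120 CPM in KO libraries, against 235, 165 and 229 CPM in WT libraries, without overlap, and its log2 change was -0.62 ± 0.16 (SE, adjusted p = 0.108 by edgeR). Ccne1 had 129, 108 and 97.7 CPM in KO libraries, against 180, 126 and 196 CPM in WT libraries, and the highest KO value passed the lowest WT value. Its log2 change was -0.58 ± 0.19 (adjusted p = 0.181). Cdc7, the kinase that phosphorylates the Mcm ring, had a log2 change of -0.23 (adjusted p = 0.579). Ccne1 was chosen for its values in each library after those values were seen.

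The polymerase genes did not move together. Prim1, the catalytic primase subunit, had 133, 128 and 115 CPM in KO libraries, against 184, 128 and 181 CPM in WT libraries, a log2 change of -0.39 ± 0.15 (SE, adjusted p = 0.277). Pola1, the catalytic subunit of polymerase alpha, had 149, 163 and 143 CPM in KO libraries, against 215, 144 and 206 CPM in WT libraries, a log2 change of -0.31 (adjusted p = 0.41). In both genes WT replicate 2 was within the KO values. Their partners Pola2 and Prim2 had log2 changes of -0.08 each. Pold1, the catalytic subunit of the lagging-strand polymerase delta, was the only gene of the 46 above 0 at an unadjusted p under 0.05, and its values were singled out after they were seen. It had 165, 143 and 127 CPM in KO libraries, against 118, 104 and 129 CPM in WT libraries, with overlap between 1 library of each group, and a log2 change of 0.31 ± 0.13 (unadjusted p = 0.0487, adjusted p = 0.298 by edgeR). Pole, of the leading-strand polymerase epsilon, had a log2 change of 0.03. The Pold1 to Pola1 count ratio was 1.103, 0.876 and 0.884 in KO libraries, against 0.548, 0.719 and 0.626 in WT libraries, without overlap.

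Of the clamp, clamp loader and single-strand binding genes, all 11 had log2 changes below 0 and none passed. Pcna, the sliding clamp, had 699, 719 and 593 CPM in KO libraries, against 1024, 704 and 975 CPM in WT libraries, and WT replicate 2 lay between KO values. Its log2 change was -0.43 ± 0.17 (SE, adjusted p = 0.285). Per kilobase it was the highest of the 46 genes in both groups, at 442 ± 44.9 CPM in KO and 594 ± 114 CPM in WT. Fen1, the flap nuclease, and Lig1, the ligase, which join the pieces of the lagging strand, had log2 changes of -0.31 and -0.29. The loader subunits Rfc1 to Rfc5 lay between -0.20 (Rfc3) and -0.01 (Rfc2), and the RPA subunits, which coat single-stranded DNA, between -0.25 (Rpa3) and -0.19 (Rpa1).

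In the chromatin group Slbp had the lowest change. Slbp binds the stem-loop of the replication-dependent histone messages and is made at the entry into S phase. It had 274, 274 and 241 CPM in KO libraries, against 468, 326 and 449 CPM in WT libraries, without overlap, and a log2 change of -0.66 ± 0.15 (SE, adjusted p = 0.0856 by edgeR). Uhrf1, which carries DNA methylation over to the new strand, had 491, 452 and 383 CPM in KO libraries, against 680, 484 and 672 CPM in WT libraries. The lowest WT value was below the highest KO value, and the log2 change was -0.47 ± 0.17 (adjusted p = 0.233). Chaf1b and Chaf1a, subunits of the histone chaperone CAF-1, had log2 changes of -0.28 and -0.15.

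Reads of some of these genes may be shared with others. The exons of 16 of the 46 genes overlap an exon of another annotated gene in build GRCm38, and for 12 that gene is in the count table. Orc1 overlaps Gm12743, Orc6 overlaps Vps35, Ccne2 overlaps Ints8, Slbp overlaps Gm10459 and Fen1 overlaps Gm10143 and Tmem258, on the opposite strand in each case. Neither the strand setting of counting nor the handling of reads that match several places is stated in the labels. The values of genes with such an overlap are therefore less certain than those of Rrm2, Pcna, Uhrf1, Ccne1 and Pold1, which have none.

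The count of genes past the threshold depended on which libraries were included. Without KO replicate 6 alone, the hepatocyte-rich KO library, 0 of 46 passed in either direction, beside 0.289% of all genes lower and 0.355% higher. The same held without any other single library except WT replicate 2, beside 0.0456% to 0.0783% lower and 0.0326% to 0.0913% higher. So few genes passed in these fits that the 0 says little about the 46. Without WT replicate 2, 16 of 46 fell, against 6.61% of all genes tested in that fit, and 0 rose, against 3.16%. That fit keeps the hepatocyte-rich KO replicate 6 and drops the WT library with the lowest mean of the 46 genes, so hepatocyte content is unbalanced in it. Without KO replicate 6 and WT replicate 2, 17 of 46 fell, against 5.56% of all genes, and 0 rose, against 3.85%. With the hepatocyte marker level of each library as a covariate, 13 of 46 fell, against 8.69% of all genes, and Pold1 rose (log2 change 0.33, adjusted p = 0.00822 by edgeR), against 8.51%. Orc1, Orc6, Cdc6, Ccne1, Ccne2, Prim1, Pcna, Fen1, Rrm2, Slbp and Uhrf1 fell in all 3 fits. These fits share libraries, and each leaves out WT replicate 2 or adjusts for the hepatocyte level, which was highest there. Their agreement is therefore not independent support, and the share of all genes that fell in all 3 is not given. No Mcm gene passed in any of them, with adjusted p-values from 0.0651 (Mcm7) to 0.693 (Mcm10). DESeq2, a second count test, on all 6 libraries called 5 of 46 lower (Ccne1, Ccne2, Orc1, Rrm2 and Slbp), against 4.32% of all genes, and 0 higher, against 4.34%.

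Because the 46 genes moved together between libraries, each was also set against their common mean log2 level in the same library, a scale chosen after the data were seen. On it, 9 genes were lower in every KO than in every WT library, against 4.26% of all tested genes, 16 were higher, against 25.6%, and 21 overlapped. All genes sit higher on this scale, since their median change becomes 0.19. The scale also takes from the 46 genes, by construction, the variation they share between libraries. In the edgeR fit the standard error of Rrm2 was 0.068 on this scale, against 0.17 in the main fit. More separation and more calls among the 46 therefore follow in part from the scale, and the shares of all genes are not a like comparison. The 9 were Rrm2, Orc1, Slbp, Ccne2, Ccne1, Uhrf1, Orc6, Pcna and Prim1. Relative to the mean, Rrm2 stood at 1.61, 1.72 and 1.69 log2 units in KO libraries, against 2.47, 2.33 and 2.36 in WT libraries, a difference of -0.72. Pold1 stood at 0.04, -0.11 and -0.08 in KO libraries, against -0.72, -0.47 and -0.58 in WT libraries, a difference of 0.54. Within this scale WT replicate 2 lay beside the other WT libraries for both genes. In the edgeR fit on this scale, Ccne2, Orc1, Rrm2 and Slbp fell, 4 of 46 against 0.967% of all genes, and Pold1 rose, 1 of 46 against 4.48% (adjusted p = 0.0119 for Rrm2 and 0.0284 for Pold1).

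**Figure D3:**
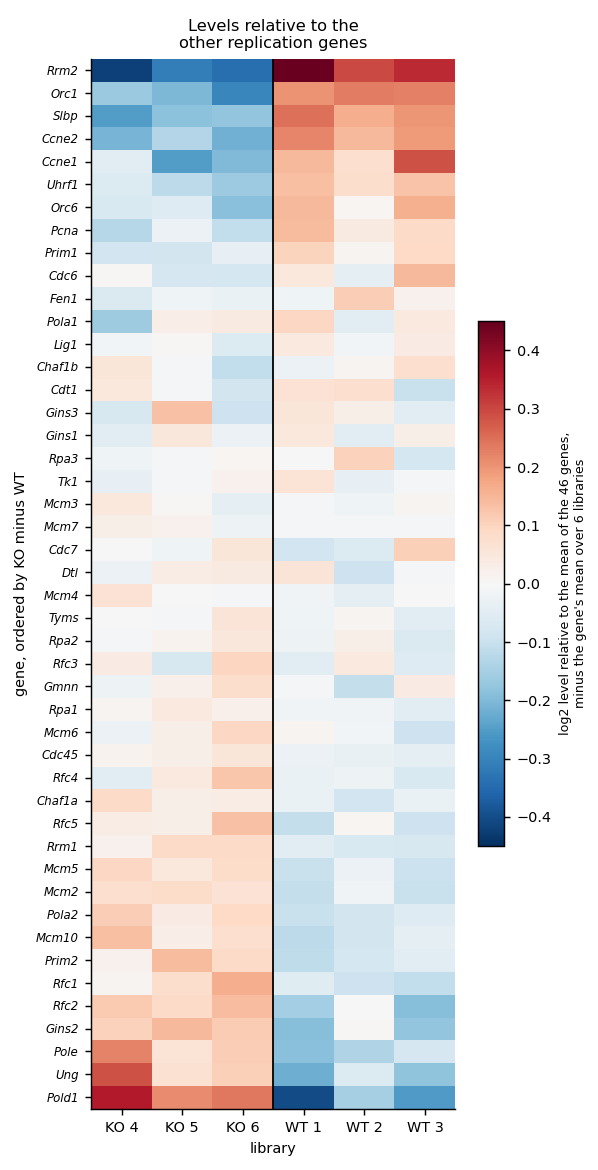
Log2 level of each of the 46 genes relative to their common mean in the same library, minus the gene's own mean over the 6 libraries; columns are KO libraries (left) and WT libraries (right), rows are ordered by KO minus WT, and blue is lower and red higher. Rrm2 at the top differs by -0.72 and Pold1 at the bottom by 0.54, and WT replicate 2 has the same colours as the other WT libraries in the first rows.

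Slbp and the cyclin E genes also stood apart in ratios of counts within a library. Partner genes were picked after the data were seen, and most pairs set genes of unlike change against each other. The choice thus favoured separation, and 10 of the 12 ratios computed had no overlap between groups. The share of other gene pairs without overlap was not computed, so this count is not evidence of a change in balance. With Mcm5, a ring subunit whose log2 change was -0.09, as denominator, Slbp stood at 0.524 ± 0.021 in KO and 0.770 ± 0.042 in WT (SD, n = 3 each). Ccne2 over Mcm5 stood at 0.272 ± 0.013 in KO and 0.389 ± 0.021 in WT, and Ccne1 over Mcm5 at 0.221 ± 0.013 in KO and 0.310 ± 0.030 in WT. In these 3 ratios no KO library reached a WT library. Tk1 over Tyms stood at 1.01 ± 0.015 in KO and 1.05 ± 0.049 in WT, with overlap. A ratio shows unequal change of its genes and not which of them changed.

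**Figure D4:**
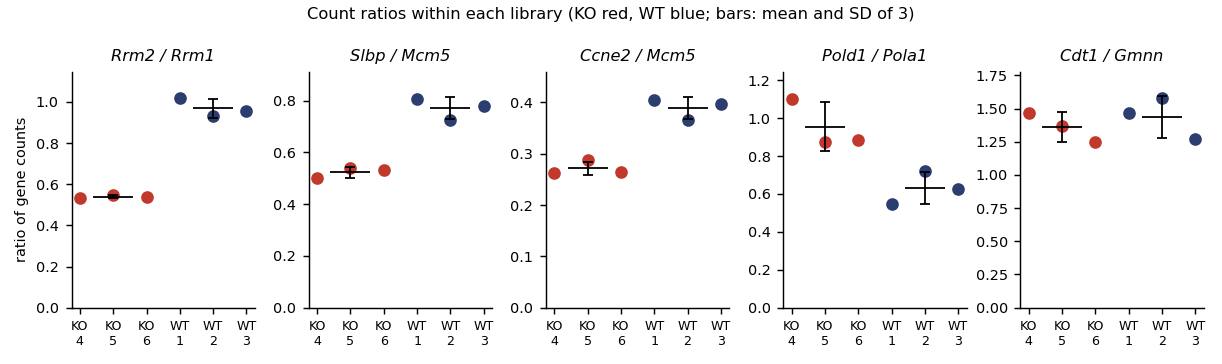
Ratio of gene counts within each library for 5 pairs, with KO libraries in red and WT libraries in blue; points are libraries, the line is the mean and the bar the SD of 3, and every axis starts at 0. Rrm2 over Rrm1 lies from 0.532 to 0.548 in KO and from 0.931 to 1.02 in WT, whereas Cdt1 over Gmnn overlaps.

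Intron counts, taken here to stand for RNA not yet spliced, were tested in the same way. How an intron was defined is not stated in the labels. Log2 changes in introns were below 0 for 40 of 46 genes, against 47% of the 11803 genes tested, with a median of -0.19, against 0.02 for all genes. Leaving out 1 library at a time, the intron median lay between -0.39 (without WT replicate 3) and -0.09 (without KO replicate 6). The mean log2 intron level of the 46 was 6.99, 6.83 and 6.63 in KO replicates 4, 5 and 6, and 7.20, 7.17 and 6.73 in WT replicates 1, 2 and 3. Here the groups overlapped through WT replicate 3. That library had the highest intron share of counts, 23.4%, against 21.3%, 17.0% and 18.0% in KO replicates 4, 5 and 6 and 16.9% and 19.1% in WT replicates 1 and 2. Without both hepatocyte-rich libraries the intron median of the 46 was -0.059, close to that of all genes in that fit, -0.064. One gene, Pola1, fell, 1 of 46 against 0.483% of all genes, and 0 rose, against 0.237%. At an unadjusted p under 0.05, 8 of 46 were lower, against 5.45%, and 0 were higher, against 5.39%. KO libraries lay below all WT libraries for 7 of 46 genes, against 7.57%, and above them for 0, against 9.92%. Pola1 introns had 58.9, 60.0 and 47.5 CPM in KO libraries, against 119, 111 and 94.0 CPM in WT libraries, a log2 change of -0.96 ± 0.16 (SE, n = 3 each, adjusted p = 0.0448 by edgeR). WT replicate 2 was high here, unlike in the gene counts of Pola1. The annotated genes Gm14780 and Gm23557 overlap Pola1 outside its exons, and their part in its intron reads was not tested. The call was lost when any library but WT replicate 3 was left out, and without WT replicate 3 it was joined by Ccne2, Orc1 and Rrm2.

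Several genes had changes of like size in introns and in gene counts. Rrm2 introns had 216, 166 and 217 CPM in KO libraries, against 398, 344 and 296 CPM in WT libraries, a log2 change of -0.79 ± 0.16 (adjusted p = 0.093), beside -0.97 in gene counts. Orc1 had -0.81 in introns beside -0.68, and Ccne2 had -0.83 beside -0.62. Ccne1 and Pola1 stood away from equality in opposite directions. Ccne1 introns had 196, 143 and 124 CPM in KO libraries, against 210, 145 and 112 CPM in WT libraries, a log2 change of -0.01, beside -0.58 in gene counts. Prim2, the regulatory primase subunit, had -0.52 ± 0.12 in introns (adjusted p = 0.128) beside -0.08 in gene counts. The annotated genes Gm29228, Gm37618 and Gm17813 overlap Prim2 outside its exons.

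The difference between exon and intron changes was itself tested, and 0 of 46 genes passed in either direction, where 0% of the 11100 genes tested did. At an unadjusted p under 0.05, 1 of 46, Pola1, had a higher exon than intron change (0.67 ± 0.21, unadjusted p = 0.0153, adjusted p = 1 by edgeR), against 1.67% of all genes, and 0 of 46 had a lower one, against 1.5%. The difference was below 0 for 26 of 46 genes, against 60.2% of all genes. For Ccne1 it was -0.58 ± 0.29 (unadjusted p = 0.0829).

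**Figure D5:**
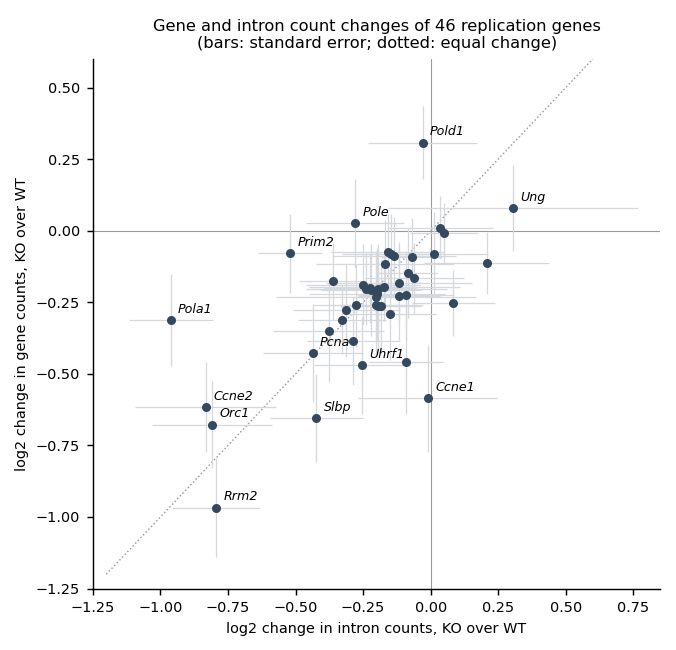
Log2 change in gene counts (y axis) against log2 change in intron counts (x axis), KO over WT, for the 46 genes, with standard errors as bars; the dotted line marks equal change. Rrm2 (-0.79 in introns, -0.97 in gene counts) and Orc1 lie near the line, Ccne1 lies below it and Pola1 above it.

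Genes of replication outside the 46 were also mostly below 0. Of 45 further replication genes tested, 34 had a log2 change below 0, with a median of -0.13, and 1 fell: Asf1b, a chaperone that hands histones to CAF-1, had 117, 115 and 103 CPM in KO libraries, against 223, 162 and 200 CPM in WT libraries (log2 change -0.80, adjusted p = 0.0315 by edgeR). The E2F-type word was in the promoters of 13 of the 35 of them with a window, 37.1%. Of 32 mitosis genes, 29 had a log2 change below 0, with a median of -0.36, and 5 fell, namely Anln, Cenpf, Ube2c, Kif23 and Prc1, with log2 changes from -0.80 to -0.64. The word was in 1 of 27 mitosis promoters, 3.7%. The difference between the 46 genes and the mitosis genes was not tested.

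Markers of red cell precursors had changes in the same direction as most of the replication genes. All 12 erythroid markers tested had log2 changes below 0, with a median of -0.50, and 2 fell, Trim10 (-0.92) and Epb4.2 (-0.72). Their summed level was 15804 to 18787 CPM in KO libraries and 20159 to 28549 CPM in WT libraries, without overlap. In 8 progenitor markers, among them Kit, the median log2 change was -0.28 and none fell past the threshold, with summed levels of 245 to 248 CPM in KO libraries and 277 to 300 CPM in WT libraries, again without overlap. Among 8 granulocyte markers the median log2 change was -0.60, and their summed levels overlapped, at 1510 to 3182 CPM in KO libraries and 2381 to 4153 CPM in WT libraries. Of 10 macrophage markers tested 9 were below 0, with a median log2 change of -0.15. The 7 endothelial markers were all above 0, with a median of 0.14 and summed levels of 110.4 to 249.2 CPM in KO libraries and 84.5 to 249.4 CPM in WT libraries, and the 6 megakaryocyte markers had 3 below and 3 above 0. No marker of the progenitor, granulocyte, macrophage, endothelial and megakaryocyte lists passed the test. None of these markers was at 0 in all libraries, and the part of cell makeup in the changes of the 46 genes was not tested.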

How the data were processed

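RNA sequencing counts of fetal liver cells were compared between 3 KO and 3 WT libraries, grouped by the sample labels. Both deposited tables hold raw counts by gene symbol: the first has gene counts without globin and mitochondrial genes, per the file headers and names, and the second exon and intron counts; STAR and HTSeq (without versions) and the builds NCBIM37 and mm10 are named in the submitters' processing notes. The labels do not state the build and gene models of each table, whether counting used the strand, or how an intron was defined. Of the columns, 0 were left unmapped. Exon counts equal the gene counts for all 15543 genes they share, so they are the same measurement. Libraries of the same group differed by more than sampling noise (chi-square per degree of freedom 16.7 to 157) and each was kept as 1 replicate.

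The 46 genes, the role groups and the other lists were chosen with earlier results of these data known. Counts were tested KO over WT with edgeR 4.0.16 in R 4.3.3 by the quasi-likelihood F test, with TMM scaling, filterByExpr (minimum count 10, minimum total 15) and BH adjustment over all genes tested, at an adjusted p under 0.05. The SE of a log2 change was derived from its F statistic. CPM levels were taken over TMM-scaled library sizes, and log2 levels had a prior count of 2. The exon against intron test was 1 fit of both tables with a term per library. Tests are two-sided. On simulated counts the gene test recovered 72% of changes of 1 log2 unit and 98% of changes of 2, and the intron test 48% and 89%. The changed genes were taken from those above a mean of 10 CPM. Each gene was drawn separately, without the shifts between libraries that the 46 genes share. The exon against intron test recovered 100% of changes of 2 log2 units. That simulation held no smaller changes and used a set spread rather than the one measured here, so its recovery of smaller changes is not known. DESeq2 1.42.0 and limma-voom (limma 3.58.1), other scalings, left-out libraries and a hepatocyte covariate were alternatives. Values in every library are given for genes past the threshold and, in each role group, for the gene of largest change and that of highest CPM; of the other lists, genes past the threshold are named. Pold1, Ccne1, intron values and count ratios were singled out after their values were seen. Reads carry no molecular identifiers, so counting precision covers counting error only.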

Additional observations from a re-analysis of the deposited data

How the results depend on the processing

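No paired analysis was possible because KO libraries carry replicates 4 to 6 and WT libraries 1 to 3, so no number is shared. Leaving out 1 library at a time, the genes of the 46 that fell in gene counts numbered 0 to 16 (1 with all 6 libraries), beside 0.0456% to 6.61% of all genes tested, those lower at an unadjusted p under 0.05 numbered 4 to 36 (10 with all), beside 5.03% to 15.5% of all genes, those higher at that p 0 to 1, those that fell in intron counts 0 to 4 (1 with all), beside 0.0495% to 1.01%, those lower in introns at an unadjusted p 5 to 20 (8 with all), beside 3.64% to 8.36%, and those with a lower exon than intron change at an unadjusted p 0 to 6 (0 with all), beside 0.521% to 9.01%. The 6 came without WT replicate 2, beside 4.91% of all genes. The highest count in gene counts came without WT replicate 2 and the highest in introns without WT replicate 3; each such fit leaves 5 libraries, and the cause was not tested. Without both hepatocyte-rich libraries, 17 fell, 35 were lower at an unadjusted p (13.4% of all genes), and in introns 0 fell and 4 were lower at an unadjusted p (3.75% of all genes). With the hepatocyte level as covariate, 13 fell, 1 rose, 25 were lower at an unadjusted p (16.6% of all genes), and 0 fell in introns.

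DESeq2 called 5 lower in gene counts (4.32% of all genes) and 5 in introns (Ccne2, Orc1, Pola1, Prim2 and Rrm2, beside 1.84% of all genes). With limma-voom, and from the exon counts of the second table, 0 were higher at an unadjusted p, and with scaling factors taken without hepatocyte, erythroid and replication genes 6 were lower at an unadjusted p (6.88% of all genes). Scaled to the mean of the 46 genes, an alternative added after seeing the data that moves the median of all genes to 0.19, the direction of most of them turned by construction: the median of the 46 was 0.033, 19 lay below 0 (17 in introns), and Mcm6 stood at 0.064 and Rrm1 at 0.13. On that scale 4 fell, beside 0.967% of all genes, and 1 rose, beside 4.48%. At an unadjusted p 11 were higher, for which the share of all genes is not given. In introns 0 fell, beside 0.0424% of all genes, and 4 were lower at an unadjusted p, beside 1.74%. A lower exon than intron change at an unadjusted p was found for 1, beside 0.901%. Rrm2 stayed below 0 in every fit run. With 3 libraries a group, changes of the size seen in most of the 46 genes lie near their standard errors of 0.10 to 0.19, so their absence from the calls does not show that they did not change.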
